A study of Mus musculus with 18 samples.

Results

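The genes described here carry glucose through glycolysis, the pentose phosphate pathway and the entry of pyruvate into the mitochondrion. They were measured in splenic CD4 T cell populations of CD28-deficient and wild-type mice. The members were fixed by name: glucose and lactate transporters, glycolytic enzymes and their isozymes, pentose phosphate enzymes, and the pyruvate dehydrogenase complex with its kinases. Of 36 named symbols, 35 were listed among the 26665 genes of the files, and all 35 were among the 12265 genes tested, which had at least 1 FPKM in at least 3 libraries. Hk2 reached that level in tTreg libraries alone. The remaining symbol, Pkm, is listed under its older name Pkm2, and is given separately and not counted. FPKM, fragments per kilobase of transcript scaled to the library's mapped fragments, is a level corrected for transcript length and allows levels to be set side by side between genes.

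The 18 RNA-seq libraries form 6 groups of 3: CD28KO tTreg, WT tTreg, CD28KO pTreg, WT pTreg, CD28KO Tconv and WT Tconv. CD28KO mice carry the CD28-/- genotype and WT mice are its wild-type counterpart. Both are C57BL/6 and carry Foxp3EGFP, a fluorescent reporter of the regulatory T cell factor Foxp3, and ages were not given. Regulatory T cells (Treg) restrain immune responses; here they were sorted by neuropilin 1 into Nrp1-positive cells, called thymus-derived (tTreg), and Nrp1-negative cells, called peripherally induced (pTreg), with conventional T cells (Tconv) as the non-regulatory population. Nrp1 is a surrogate for origin, so the names tTreg and pTreg stand for the gate. The labels do not say whether the 3 libraries of a group came from separate animals, and the p-values measure only the spread between these libraries. These are bulk samples, in which fewer cells of a kind and less RNA per cell cannot be told apart.

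CD28 is the costimulatory receptor of T cells, and in activated T cells its signal is known to raise glucose uptake and glycolysis through the PI3K, Akt and mTOR pathway. Glycolysis splits glucose into pyruvate, which lactate dehydrogenase turns into lactate for export or the pyruvate dehydrogenase complex turns into acetyl-CoA for the mitochondrion. The pentose phosphate pathway branches off early to make NADPH and ribose. Several steps have isozymes, and cells set the flow at the transporters, hexokinase, phosphofructokinase and the pyruvate dehydrogenase kinases. Resting Treg rely less on glycolysis than activated conventional T cells.

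Cd28 transcript did not follow the labels. It was at 71.2, 76.3 and 80.6 FPKM in the libraries labelled CD28KO tTreg, against 57.5, 59.7 and 62.9 FPKM in WT tTreg. It averaged 76.0 ± 19.1 FPKM in CD28KO pTreg and 48.2 ± 14.8 FPKM in WT pTreg, and 88.8 ± 25.8 FPKM in CD28KO Tconv and 61.3 ± 25.2 FPKM in WT Tconv (SD, n = 3 each). No difference passed the test (lowest adjusted p = 0.547). A gene-level value sums the whole transcript and does not tell which exons are left, so Cd28 does not check the genotype, and CD28KO and WT below mean the libraries so labelled.

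The sort was visible in its own genes. Nrp1 was at 55.6 to 83.5 FPKM in tTreg and 0.449 to 0.911 FPKM in pTreg. Foxp3 was at 55.95 FPKM or more in each of the 12 Treg libraries, against 0.0669 to 0.285 FPKM in 5 of the 6 Tconv libraries. The exception was CD28KO Tconv library 3, with 21.1 FPKM, and its summed level of 8 Treg markers was 194.2 FPKM, against 34.8 and 35.8 FPKM in the other CD28KO Tconv libraries. CD28KO tTreg library 3 had the highest summed level of 10 resting and conventional T cell markers of its group, 945.4 FPKM against 585.8 and 688.5 FPKM. The total FPKM of a library ran from 514726 to 994139, with 2.98 to 26.9% of it from the single gene Mir5105, and the read depth behind the values is not known. That share was highest in CD28KO Tconv library 3, WT pTreg library 1 and WT Tconv library 1. WT pTreg library 1 was the lowest of its group for 34 of the 35 members and for 90.2% of all tested genes. WT Tconv library 1 was the highest of its group for 22 of the 35 members, against 44.7% of all tested genes.

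Levels differed far more between members than between groups. Gapdh, which oxidises glyceraldehyde phosphate, had the highest mean over the 18 libraries, 360.5 FPKM (range 239.4 to 583.3). Ldha, the muscle-type lactate dehydrogenase, followed at 220.1 FPKM and Eno1, the ubiquitous enolase, at 214.3 FPKM. Aldoa, the main aldolase, averaged 158.3 FPKM and Gpi1, glucose phosphate isomerase, 121.1 FPKM. Pkm2, the files' symbol for the pyruvate kinase of most tissues, averaged 201.9 FPKM and was called in 0 comparisons.

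Of the glucose transporters, Slc2a3 (GLUT3, the high-affinity neuronal and leukocyte transporter) averaged 24.8 FPKM and Slc2a1 (GLUT1) 13.7 FPKM. Hexokinase, which traps glucose in the cell, was mostly Hk1 at 31.9 FPKM, with Hk2, the inducible isozyme, at 0.792 FPKM. The phosphofructokinase subunits, which commit sugar to glycolysis, were led by Pfkp at 25.9 FPKM, ahead of Pfkl at 16.5 and Pfkm at 7.72 FPKM. Pfkfb3 and Pfkfb4, which make the activator of phosphofructokinase, were at 11.9 and 2.75 FPKM. The pentose phosphate members ranged from Rpe, at 9.93 FPKM, and G6pdx, the entry dehydrogenase, at 10.7 FPKM, to Tkt at 41.0 and Taldo1 at 84.9 FPKM, the enzymes that return sugars to glycolysis. In the pyruvate dehydrogenase complex the subunits Pdha1 and Pdhb were at 50.2 and 50.7 FPKM, and Dlat, its acetyltransferase, at 7.07 FPKM. Pdk1, a kinase that switches the complex off, averaged 50.1 FPKM, and Pdk3, a second such kinase, 7.37 FPKM. The lactate exporters Slc16a1 (MCT1) and Slc16a3 (MCT4) averaged 5.55 and 2.25 FPKM.

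**Figure D1:**
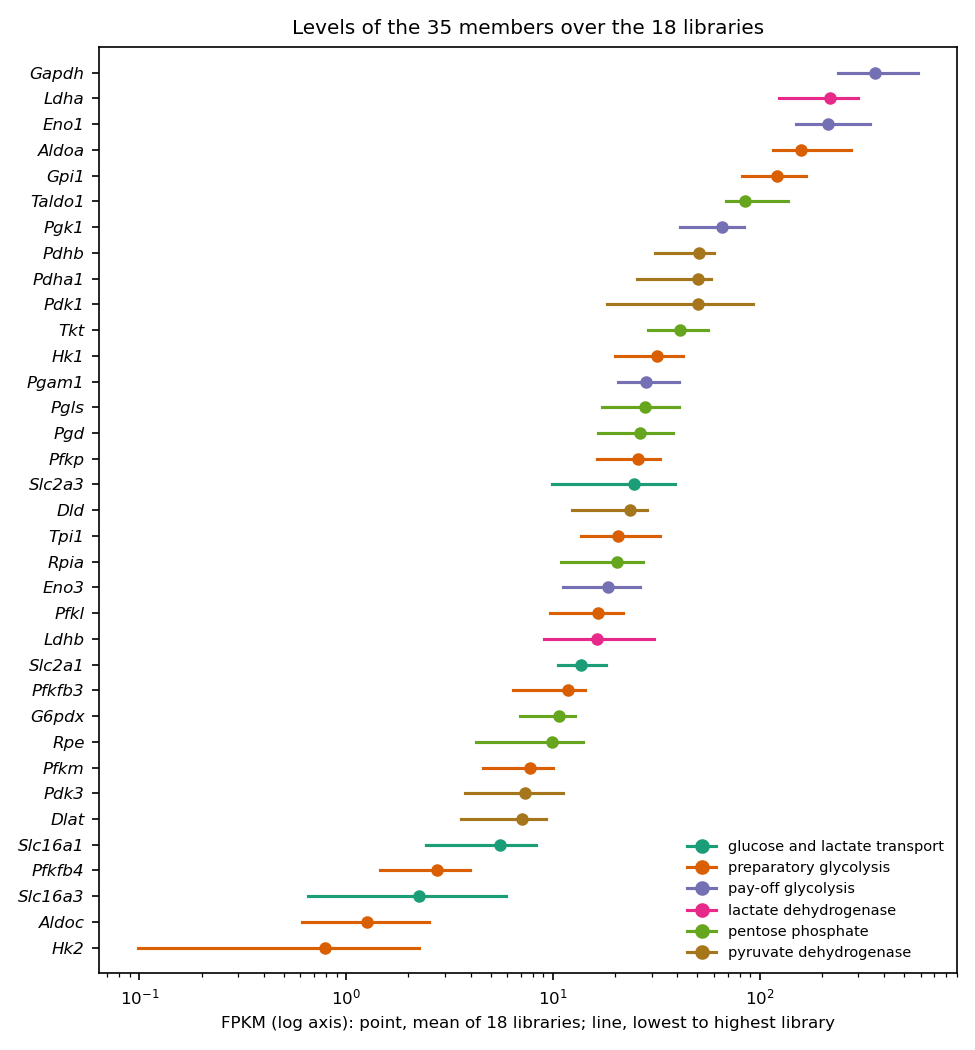
Level of each of the 35 members over the 18 libraries, as mean and range in FPKM on a log axis, coloured by role. Gapdh, Ldha and Eno1 stand at the top, with means of 360.5, 220.1 and 214.3 FPKM, and Hk2 at the bottom, with 0.792 FPKM.

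Reads of some members can also fit copies elsewhere in the genome. In the GENCODE M21 transcripts (GRCm38), Gapdh shares 82.5% of its 50-base stretches with other genes and Pgk1 68.0%, in both mainly with processed pseudogenes, and Eno1 shares 72.2%, mainly with its copy Eno1b, so their levels are uncertain to the extent that the counting split such reads. Pgam1 shares 41.5%, Ldhb 27.0% and Tpi1 7.51%. Of the other members called between populations below, Slc2a3, Hk2, Slc16a3, Pdk1, Eno3, Pdk3, Aldoc and Pfkfb4 share none. The members lie on 16 chromosomes, with 6 of them on chromosome 6.

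Promoter sequence is shown for Hk2, Ldhb and Pdk1, which differed between populations at the start and at the end of the pathway, and for Ldha, the isozyme beside Ldhb that did not pass the test. Each window is the 250 bases before the transcript start, from RefSeq (GRCm38.p6), printed 5′ to 3′ on the gene's strand. Capitals mark ACGTG, a form of the core of the hypoxia response element, or its reverse complement CACGT, and where the run is CACGTG, an E-box of the kind that Myc and Max bind, which holds ACGTG on both strands. Where RefSeq gives more than 1 window for a gene, as for Ldha and Pdk1, the one of lowest coordinate is shown. The windows are chr6:82774455-82774704 (minus strand) for Hk2, chr7:46845554-46845803 (plus strand) for Ldha, chr6:142507958-142508207 (minus strand) for Ldhb and chr2:71872974-71873223 (plus strand) for Pdk1.
Hk2: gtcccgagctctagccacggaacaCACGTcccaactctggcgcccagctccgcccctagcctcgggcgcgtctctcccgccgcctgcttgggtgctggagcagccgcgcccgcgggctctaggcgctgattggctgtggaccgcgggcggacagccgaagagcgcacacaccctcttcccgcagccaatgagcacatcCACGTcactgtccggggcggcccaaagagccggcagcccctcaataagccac
Ldha: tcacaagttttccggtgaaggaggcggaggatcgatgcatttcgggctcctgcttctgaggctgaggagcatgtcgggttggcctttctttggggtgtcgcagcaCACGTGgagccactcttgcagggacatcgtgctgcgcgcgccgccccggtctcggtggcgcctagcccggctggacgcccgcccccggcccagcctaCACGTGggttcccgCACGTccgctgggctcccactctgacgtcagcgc
Ldhb: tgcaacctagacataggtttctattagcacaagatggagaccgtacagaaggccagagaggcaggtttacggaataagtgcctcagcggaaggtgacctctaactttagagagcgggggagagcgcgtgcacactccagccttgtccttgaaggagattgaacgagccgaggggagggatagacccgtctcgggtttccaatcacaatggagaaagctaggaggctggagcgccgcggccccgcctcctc
Pdk1: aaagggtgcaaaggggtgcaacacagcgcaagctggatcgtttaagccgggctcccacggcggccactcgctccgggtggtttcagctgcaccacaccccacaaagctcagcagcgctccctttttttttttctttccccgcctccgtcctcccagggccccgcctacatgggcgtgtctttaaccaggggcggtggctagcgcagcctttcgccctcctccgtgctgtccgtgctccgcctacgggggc
The window shown for Hk2 holds ACGTG 2 times, counted on both strands, and that for Ldha 5 times, with CACGTG in 2 places. Neither motif is in the windows shown for Ldhb and Pdk1. The Ldha window that is not shown, chr7:46846832-46847081, also holds neither. Over all members with an entry, 34 genes with 47 windows, 31.9% of windows hold ACGTG on either strand, against 16.6% of 32851 windows of all RefSeq genes. CACGTG is in 8.51% of the members' windows and in 6.02% of all windows. These are counts of letters and not of bound sites.

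Whether CD28 deficiency moved these genes was asked in each population with limma on log2(FPKM + 1), with p-values adjusted over the 12265 genes. In tTreg, limma called 0 of the 35 members between CD28KO and WT (0.204% of all tested genes were called), and at an unadjusted p under 0.05 it had 6 members, all lower in CD28KO, where 3.82% of all genes passed in either direction and 3.04% were lower. Most members nonetheless lay on 1 side: 32 of 35 had a change below 0, against 61.8% of all tested genes. In 18 members every CD28KO tTreg library was below every WT tTreg library, against 15.1% of all genes. The median change was -0.18 for the members and -0.05 for all tested genes, on the log2 scale.

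The direction in tTreg ran through most roles. All 11 members of the preparatory phase, all 5 of the pay-off phase, both lactate dehydrogenases and all 7 pentose phosphate members had changes below 0, with medians between -0.32 and -0.18. Among the transporters, 3 of 4 were below 0, and in the pyruvate dehydrogenase group 4 of 6, with a median of -0.07. Slc2a3 went the other way, at 34.4, 36.5 and 32.3 FPKM in CD28KO tTreg against 29.0, 29.1 and 29.6 FPKM in WT tTreg. It was the 1 member whose CD28KO tTreg libraries were all above those of WT, against 2.68% of all genes. Its change, 0.23 on the log2 scale, was the highest of the members, as it also was in pTreg (0.44) and Tconv (0.08). Scaled instead to each library's sum without Mir5105, 24 of the 35 were below 0 with a median of -0.05, while the median of all genes was 0.06. With quantile normalisation 28 were below 0 with a median of -0.10, while that of all genes was 0.01.

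Slc16a3, which exports lactate, had the lowest adjusted p of the members in tTreg. It was at 3.46, 2.88 and 2.44 FPKM in CD28KO tTreg, against 4.39, 4.73 and 5.97 FPKM in WT tTreg, a change of -0.62 ± 0.18 (log2, SE) with adjusted p = 0.385. The groups did not overlap. Gapdh was at 323.1, 358.3 and 309.9 FPKM in CD28KO tTreg, against 482.1, 420.7 and 455.3 FPKM in WT tTreg. These groups did not overlap either, and the same held for Tpi1, triose phosphate isomerase, at 19.8 to 22.9 FPKM in CD28KO tTreg against 27.8 to 32.8 FPKM in WT tTreg, and for Pgam1, phosphoglycerate mutase, at 24.2 to 26.3 FPKM against 31.5 to 35.9 FPKM.

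Those 3 glycolytic enzymes passed the test when the 3 libraries with the highest Mir5105 share were left out of the model. The changes were then -0.47 ± 0.09 for Tpi1 (adjusted p = 0.0357), -0.45 ± 0.10 for Gapdh (adjusted p = 0.0451) and -0.42 ± 0.09 for Pgam1 (adjusted p = 0.0433). The 3 libraries are not part of the tTreg comparison. They enter its estimate of spread and the filter that sets which genes are tested and adjusted over. Without them 130 genes in all were called, in place of 25. No member was called with any single library left out. Summed cell cycle transcripts moved the same way, at 226.9 to 264.4 FPKM in CD28KO tTreg against 272.9 to 321.2 FPKM in WT tTreg. So did Treg markers, at 679.1 to 805.7 against 875.4 to 1104 FPKM, and B cell markers, at 5.95 to 6.33 against 10.97 to 12.8 FPKM. General T cell markers were lower too, at 1753 to 1843 FPKM in CD28KO tTreg against 1904 to 1994 FPKM in WT tTreg. Plasma cell markers were at 26.2 to 30.9 against 33.9 to 37.6 FPKM. Of the B cell markers, Ms4a1 was listed at 0 in 8 of the 18 libraries and Pax5 in 9, and the part of any of these lists in the result was not tested.

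In pTreg, limma called 0 members between CD28KO and WT (0.204% of all genes), with the lowest adjusted p of 0.77. Only Slc2a3 passed an unadjusted p under 0.05, at 30.5, 34.1 and 39.0 FPKM in CD28KO pTreg, against 16.8, 30.02 and 31.0 FPKM in WT pTreg. These groups overlap, and the low value belongs to WT pTreg library 1. Changes were above 0 in 30 of 35 members, close to the 83.5% of all genes, and the medians were 0.13 for the members and 0.19 for all genes. With quantile normalisation the members' median was -0.03 and 23 of the 35 were below 0.

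In Tconv, limma called 0 members between CD28KO and WT (0.791% of all genes), and 7 had an unadjusted p under 0.05, all lower in CD28KO, against 9.66% of all genes in either direction and 9.38% lower. Changes were below 0 in 31 members, against 78.1% of all genes, and 14 members had CD28KO libraries all below the WT libraries, against 18.2%. The median was -0.31 for the members and -0.16 for all genes. The lowest adjusted p was that of Gapdh, 0.273, at 239.4, 265.2 and 269.4 FPKM in CD28KO Tconv, against 583.3, 333.0 and 323.1 FPKM in WT Tconv. Aldoa was at 143.5, 160.6 and 139.9 FPKM in CD28KO Tconv, against 275.6, 182.9 and 174.5 FPKM in WT Tconv. Neither gene's groups overlapped, and in both the highest value was that of WT Tconv library 1. That library also had the highest total FPKM of all, 994139, against 583452 and 568101 in the other WT Tconv libraries. The members made up 0.313% of its total without Mir5105, against 0.327 and 0.34% in those libraries. Handling stress genes summed to 3113 FPKM in WT Tconv library 1, against 1398 and 1955 FPKM in the other WT Tconv libraries. The part of the high total and of the stress genes in the result was not tested. Other summed lists were also lower in CD28KO Tconv than in WT Tconv with no overlap. Cell cycle genes were at 186.1 to 229.5 FPKM in CD28KO Tconv against 243 to 287.6 FPKM in WT Tconv, T cell markers at 1602 to 1838 against 1942 to 2608 FPKM, and myeloid markers at 37.95 to 38.4 against 52.1 to 74.3 FPKM. NK cell markers were at 1.54 to 2.65 FPKM in CD28KO Tconv against 3.53 to 7.02 FPKM in WT Tconv, and plasma cell markers at 15.8 to 19.3 against 19.4 to 25.3 FPKM. The part of these lists in the result was not tested either. Scaled to the sum without Mir5105, 17 of the 35 members were below 0, with a median of 0.00 against 0.11 for all genes.

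The 3 members most often used to follow glucose use showed no called change with CD28. Slc2a1 had differences of -0.07 ± 0.18 in tTreg (adjusted p = 1), 0.14 ± 0.18 in pTreg (adjusted p = 0.775) and -0.19 ± 0.18 in Tconv (adjusted p = 0.751), as log2 differences with SE. Hk2 had differences of -0.33 ± 0.15 in tTreg (adjusted p = 1), -0.11 ± 0.15 in pTreg (adjusted p = 0.778) and -0.14 ± 0.15 in Tconv (adjusted p = 0.801). Ldha had differences of -0.17 ± 0.21 in tTreg (adjusted p = 1), 0.23 ± 0.21 in pTreg (adjusted p = 0.77) and -0.31 ± 0.21 in Tconv (adjusted p = 0.635). The sign of Slc2a1 in all 3 populations, and of Ldha in pTreg and Tconv, turned under other scalings or without WT pTreg library 1, so no direction is given for them.

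**Figure D2:**
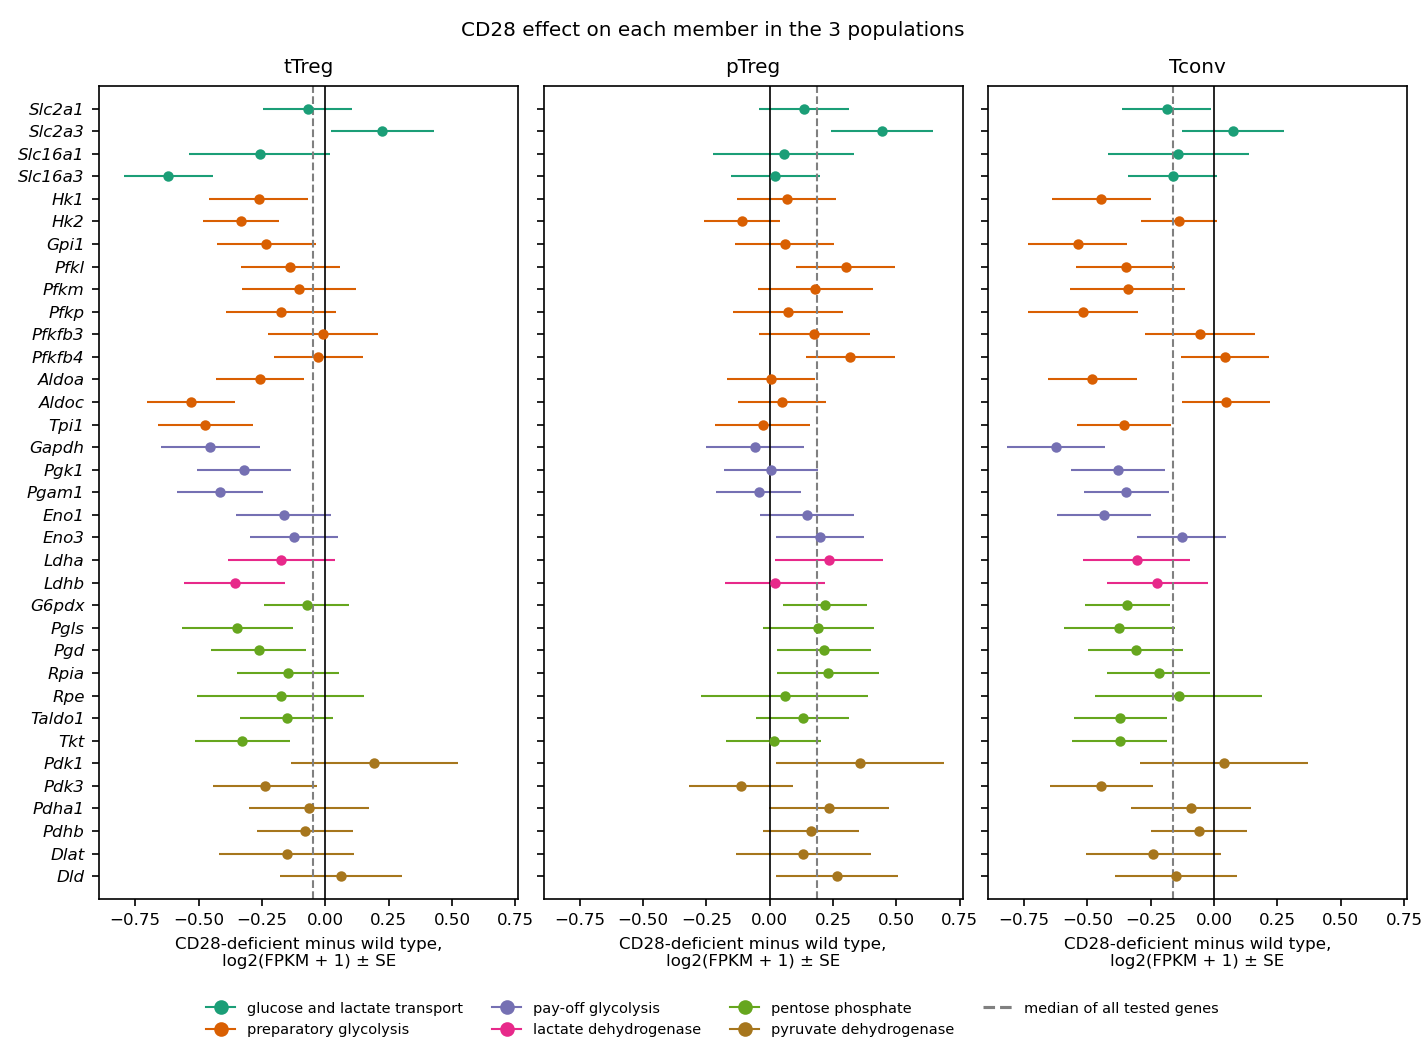
Change of each member between CD28KO and WT (log2(FPKM + 1) with SE) in tTreg, pTreg and Tconv, coloured by role, with the median of all tested genes as a dashed line. Most members lie below 0 in tTreg and Tconv and above it in pTreg, and limma called none of them.

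Whether the CD28 difference itself differs between populations was tested as an interaction. Limma called 0 members for pTreg against tTreg (0.0245% of all genes), 0 for tTreg against Tconv (0.122%) and 0 for pTreg against Tconv (0.0734%). Unadjusted p-values under 0.05 were found for 2, 1 and 4 members, against 1.47%, 2.18% and 8.75% of all genes. The 2 members of pTreg against tTreg were Aldoc and Slc16a3. Slc16a3 averaged 2.92 ± 0.51 FPKM in CD28KO tTreg and 5.03 ± 0.83 FPKM in WT tTreg, and 1.83 ± 0.12 FPKM in CD28KO pTreg and 1.81 ± 0.53 FPKM in WT pTreg (SD, n = 3 each). Its interaction was 0.64 ± 0.25 (log2, SE) with adjusted p = 0.863.

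The populations differed more clearly than the genotypes. Against Tconv, tTreg had higher Slc2a3, Hk2, Eno3 and Slc16a3 and lower Pdk1 and Pfkfb4 in both genotypes. The other glucose transporter Slc2a1 and the other lactate exporter Slc16a1 were not called, and Pdk3, a kinase like Pdk1, was called higher in CD28KO tTreg. In CD28KO, 7 of 35 members were called between tTreg and Tconv (12.1% of all genes), 5 higher and 2 lower (9.63% and 2.47% of all genes). In WT, 9 of 35 were called (12.6% of all genes), 7 higher and 2 lower (8.33% and 4.26% of all genes). The pTreg had 3 members called against Tconv in CD28KO (5.85% of all genes, 4.80% higher) and 1 in WT (4.49% of all genes, 2.05% higher), all higher. These comparisons share the Tconv libraries of their genotype.

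Slc2a3 (GRCm38 chr6:122727809-122801640, minus strand) separated both kinds of Treg from Tconv. It was at 34.4, 36.5 and 32.3 FPKM in CD28KO tTreg and 29.0, 29.1 and 29.6 FPKM in WT tTreg. The pTreg levels were 30.5, 34.1 and 39.0 FPKM in CD28KO and 16.8, 30.02 and 31.0 FPKM in WT. The Tconv levels were 9.92, 13.5 and 14.4 FPKM in CD28KO and 10.7, 12.1 and 12.6 FPKM in WT. No Tconv library reached the lowest Treg library, and the Treg populations overlapped each other. Against Tconv, tTreg were 2.73-fold higher in CD28KO (log2 change 1.39 ± 0.20, adjusted p = 0.000123) and 2.48-fold higher in WT (1.24 ± 0.20, adjusted p = 0.000333). The pTreg were 2.74-fold higher in CD28KO (1.39 ± 0.20, adjusted p = 0.000412) and 2.20-fold higher in WT (1.03 ± 0.20, adjusted p = 0.00531). In a fit of just those 2 groups the WT pTreg call was lost (adjusted p = 0.277). Slc2a1, the other transporter, was at 12.9 to 13.4 FPKM in CD28KO tTreg and 13.1 to 14.6 FPKM in WT tTreg, against 11.1 to 12.8 FPKM in CD28KO Tconv and 12.6 to 15.6 FPKM in WT Tconv, and was not called.

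Hk2 (chr6:82725025-82774454, minus strand) was at low levels and passed the filter on low values through tTreg, the group where it is high. It was at 1.15, 1.32 and 1.07 FPKM in CD28KO tTreg and 1.43, 1.61 and 2.27 FPKM in WT tTreg. Its values in pTreg were 0.495, 0.616 and 0.683 FPKM in CD28KO and 0.353, 0.934 and 0.955 FPKM in WT. Its values in Tconv were 0.134, 0.0988 and 0.277 FPKM in CD28KO and 0.307, 0.298 and 0.251 FPKM in WT. All tTreg libraries were above all pTreg libraries, and all pTreg libraries above all Tconv libraries. Against Tconv, the mean level of tTreg was 6.96-fold in CD28KO (log2 change 0.90 ± 0.15, adjusted p = 0.000394) and 6.20-fold in WT (1.10 ± 0.15, adjusted p = 6.48e-05). Without the filter the adjusted p-values were 0.000532 in CD28KO and 0.000104 in WT. The log2 changes are smaller than these ratios because 1 FPKM was added before the logarithm. Against pTreg, tTreg were higher in WT (0.67 ± 0.15, adjusted p = 0.0118), a call lost without WT tTreg library 3 (adjusted p = 0.0928), with a pseudocount of 0.1 (adjusted p = 0.0818) and in a fit of just those groups (adjusted p = 0.224). In CD28KO the difference between tTreg and pTreg was 0.45 ± 0.15 (adjusted p = 0.139). The pTreg exceeded Tconv by 0.45 ± 0.15 in CD28KO (adjusted p = 0.102) and by 0.42 ± 0.15 in WT (adjusted p = 0.151), and with the replicate number as a block the CD28KO difference passed (adjusted p = 0.0486).

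Among the other enzymes that prepare sugar for cleavage and cleave it, Aldoc, the brain-type aldolase, was higher in tTreg than in Tconv in WT (log2 change 0.88 ± 0.17, adjusted p = 0.00184). It was at 1.501, 1.38 and 0.926 FPKM in CD28KO tTreg and 2.08, 2.20 and 2.51 FPKM in WT tTreg. Levels of Tconv were 0.707, 1.13 and 0.678 FPKM in CD28KO and 0.960, 0.612 and 0.748 FPKM in WT. The WT groups were apart and the CD28KO groups overlapped, and Aldoc lies at chr11:78322968-78327781 (plus strand). Levels of pTreg were 1 to 1.53 FPKM in CD28KO and 0.685 to 1.68 FPKM in WT. Tpi1 averaged 29.8 ± 2.7 FPKM in WT tTreg and 19.6 ± 5.6 FPKM in WT Tconv (SD, n = 3 each), a change of 0.61 ± 0.19 (adjusted p = 0.0402). That call was lost in 15 of 27 alternatives, among them the fits without each of 13 single libraries, with adjusted p-values up to 0.168. Those 13 libraries were all 3 of CD28KO pTreg, all 3 of CD28KO tTreg, all 3 of WT tTreg, CD28KO Tconv 1 and 2, and WT Tconv 2 and 3.

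Pfkfb4, the phosphofructokinase regulator of hypoxic and tumour cells, was lower in tTreg than in Tconv. It averaged 1.99 ± 0.33 FPKM in CD28KO tTreg and 3.66 ± 0.28 FPKM in CD28KO Tconv (log2 change -0.65 ± 0.17, adjusted p = 0.0187). In WT it averaged 2.06 ± 0.53 FPKM in tTreg and 3.53 ± 0.26 FPKM in Tconv (-0.58 ± 0.17, adjusted p = 0.0375; SD, n = 3 each). The CD28KO call was lost without CD28KO Tconv 1 or 2 or CD28KO tTreg 1 or 2 (adjusted p 0.0504 to 0.103). The WT call was lost in 12 of 27 alternatives, among them those without WT tTreg 1 (adjusted p = 0.197) or 2, any WT Tconv library, CD28KO pTreg 2 or CD28KO tTreg 2. Its relative Pfkfb3 was at 13.3 and 13.4 FPKM on average in CD28KO and WT tTreg, and at 11.6 and 12.1 FPKM in CD28KO and WT Tconv.

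In the pay-off phase, Eno3 (chr11:70657202-70662513, plus strand), the muscle-type enolase, was the member called between populations. It was at 23.9, 20.0 and 21.3 FPKM in CD28KO tTreg and 21.1, 26.4 and 23.8 FPKM in WT tTreg. For pTreg the values were 21.0, 18.3 and 21.6 FPKM in CD28KO and 14.4, 18.4 and 20.1 FPKM in WT. For Tconv the values were 11.2, 13.1 and 14.3 FPKM in CD28KO and 17.6, 11.8 and 13.4 FPKM in WT. Every tTreg library was above every Tconv library, and WT pTreg overlapped WT Tconv. The changes against Tconv were 0.72 ± 0.17 for CD28KO tTreg (adjusted p = 0.0092), 0.71 ± 0.17 for WT tTreg (adjusted p = 0.00995) and 0.62 ± 0.17 for CD28KO pTreg (adjusted p = 0.0455). The CD28KO tTreg call was lost without CD28KO Tconv 1 (adjusted p = 0.0625) or CD28KO tTreg 1 (0.0568), and the WT tTreg call without WT Tconv 2 (0.059) or WT tTreg 2 (0.0608). The CD28KO pTreg call was lost in 18 of 27 alternatives, with adjusted p-values up to 0.228, among them the fits without any CD28KO pTreg, CD28KO Tconv, CD28KO tTreg or WT tTreg library, WT pTreg 2 or WT Tconv 3. Eno1 had no called change. With quantile normalisation, calls of Gapdh included higher levels in CD28KO tTreg than in CD28KO Tconv (0.35 ± 0.10, adjusted p = 0.0185). They also included higher levels in WT tTreg than in WT pTreg (0.35 ± 0.10, adjusted p = 0.0413).

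Ldhb (chr6:142490249-142507957, minus strand), the heart-type lactate dehydrogenase subunit, was highest in tTreg. It was at 20.2, 17.4 and 20.9 FPKM in CD28KO tTreg and 23.5, 22.1 and 30.8 FPKM in WT tTreg. The pTreg levels were 11, 12 and 13.2 FPKM in CD28KO and 9.09, 14.4 and 12.6 FPKM in WT. The Tconv levels were 11.2, 13.6 and 14.7 FPKM in CD28KO and 19.8, 12.7 and 14.7 FPKM in WT. In each genotype the tTreg libraries lay above those of pTreg and Tconv. In WT, tTreg were higher than pTreg by 1.03 ± 0.20 (adjusted p = 0.00443) and than Tconv by 0.67 ± 0.20 (adjusted p = 0.0335). The call against pTreg was lost in a fit of just those groups (adjusted p = 0.141), and that against Tconv without WT Tconv 2 (0.148) or 3 (0.101) or without WT tTreg 1 (0.0607) or 3 (0.187). In CD28KO the difference between tTreg and pTreg was 0.65 ± 0.20 (adjusted p = 0.0938), and 0.65 ± 0.18 (adjusted p = 0.0474) with the replicate number as a block. Ldha was at 178.4 to 200 FPKM in CD28KO tTreg and 207.4 to 219.7 FPKM in WT tTreg, against 199.4 to 237.5 FPKM in CD28KO Tconv and 247.5 to 299.4 FPKM in WT Tconv, with no called change.

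Slc16a3 (chr11:120948480-120960868, plus strand) had the lowest adjusted p of all members, between tTreg and Tconv of WT. In tTreg it was at 3.46, 2.88 and 2.44 FPKM in CD28KO and 4.39, 4.73 and 5.97 FPKM in WT. Its values in pTreg were 1.73, 1.96 and 1.79 FPKM in CD28KO and 1.60, 2.42 and 1.43 FPKM in WT. Its values in Tconv were 0.735, 0.657 and 1.16 FPKM in CD28KO and 1.39, 1.10 and 0.732 FPKM in WT. The 3 populations did not overlap within a genotype. Against Tconv, tTreg were 3.44-fold higher in CD28KO (log2 change 1.09 ± 0.18, adjusted p = 0.000309) and 4.67-fold higher in WT (1.54 ± 0.18, adjusted p = 1.29e-05). Against pTreg, WT tTreg were 2.77-fold higher (1.11 ± 0.18, adjusted p = 0.00102), a call lost in a fit of just those groups (adjusted p = 0.0619), and in CD28KO the difference was 0.46 ± 0.18 (adjusted p = 0.224). CD28KO pTreg were higher than CD28KO Tconv by 0.62 ± 0.18 (adjusted p = 0.048). That call was lost in 16 of 27 alternatives, with adjusted p-values up to 0.193, among them the fits without any CD28KO pTreg or CD28KO tTreg library, CD28KO Tconv 1 or 2, WT Tconv 2, or WT tTreg 1 or 2.

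Pdk1 (chr2:71873224-71903858, plus strand), which blocks pyruvate dehydrogenase by phosphorylation, went the other way. It was at 19.0, 22.1 and 37.9 FPKM in CD28KO tTreg and 18.3, 24.1 and 23.9 FPKM in WT tTreg. Levels of pTreg were 40.6, 60.0 and 62.0 FPKM in CD28KO and 22.5, 52.8 and 59.5 FPKM in WT. Levels of Tconv were 65.4, 92.6 and 73.3 FPKM in CD28KO and 55.1, 80.6 and 92.3 FPKM in WT. Every tTreg library was below every Tconv library. The highest tTreg value belonged to CD28KO tTreg library 3. Its resting and conventional T cell markers summed to 945.4 FPKM, against 585.8 and 688.5 FPKM in the other CD28KO tTreg libraries. Whether this bears on its Pdk1 level was not tested. Against Tconv, tTreg were at 0.342 times the level in CD28KO (log2 change -1.56 ± 0.33, adjusted p = 0.00318) and 0.291 times in WT (-1.72 ± 0.33, adjusted p = 0.00151). Against pTreg the differences were -1.05 ± 0.33 in CD28KO (adjusted p = 0.106) and -0.89 ± 0.33 in WT (adjusted p = 0.181). With the replicate number as a block both passed, at -1.05 ± 0.21 (adjusted p = 0.00431) in CD28KO and adjusted p = 0.0109 in WT. Without WT pTreg library 1, Pdk1, Hk2, Pdk3 and Ldhb were called between tTreg and pTreg in CD28KO, 4 members in place of 0, without CD28KO tTreg library 3 Pdk1 alone, and without WT Tconv library 1 Ldhb alone.

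Pdk3 (chrX:93764607-93832201, minus strand), a kinase of the same kind, had its highest means in tTreg. It was at 9.62, 7.98 and 8.93 FPKM in CD28KO tTreg and 11.2, 9.58 and 11.1 FPKM in WT tTreg. For pTreg the values were 5.96, 5.89 and 5.64 FPKM in CD28KO and 4.13, 8.23 and 7.47 FPKM in WT. For Tconv the values were 3.76, 5.74 and 5.81 FPKM in CD28KO and 7.37, 7.86 and 6.43 FPKM in WT. The tTreg libraries were above the other libraries of their genotype. In CD28KO, tTreg were higher than Tconv by 0.70 ± 0.20 (adjusted p = 0.0305), a call lost without CD28KO Tconv 1 (0.199) or without CD28KO tTreg 1 (0.13), 2 (0.0564) or 3 (0.0883). In WT the difference was 0.50 ± 0.20 (adjusted p = 0.152). The remaining pyruvate dehydrogenase members, Pdha1, Pdhb, Dlat and Dld, had no called change in any of the 12 comparisons, and neither did the 7 pentose phosphate members. With quantile normalisation Rpia was called higher in tTreg than in Tconv in CD28KO (adjusted p = 0.0162) and WT (0.00565) and than in pTreg in WT (0.0335), and Tkt higher in WT tTreg than in WT Tconv (0.0146). Without the 3 libraries of highest Mir5105 share, Pgls (0.0345) and Taldo1 (0.0352) were called lower in CD28KO tTreg than in CD28KO pTreg, Rpia (0.0121) and Tkt (0.0387) higher in CD28KO tTreg than in CD28KO Tconv, Tkt (0.009) higher in WT tTreg than in WT Tconv, and Pgls (0.00782) higher in CD28KO pTreg than in CD28KO Tconv.

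**Figure D3:**
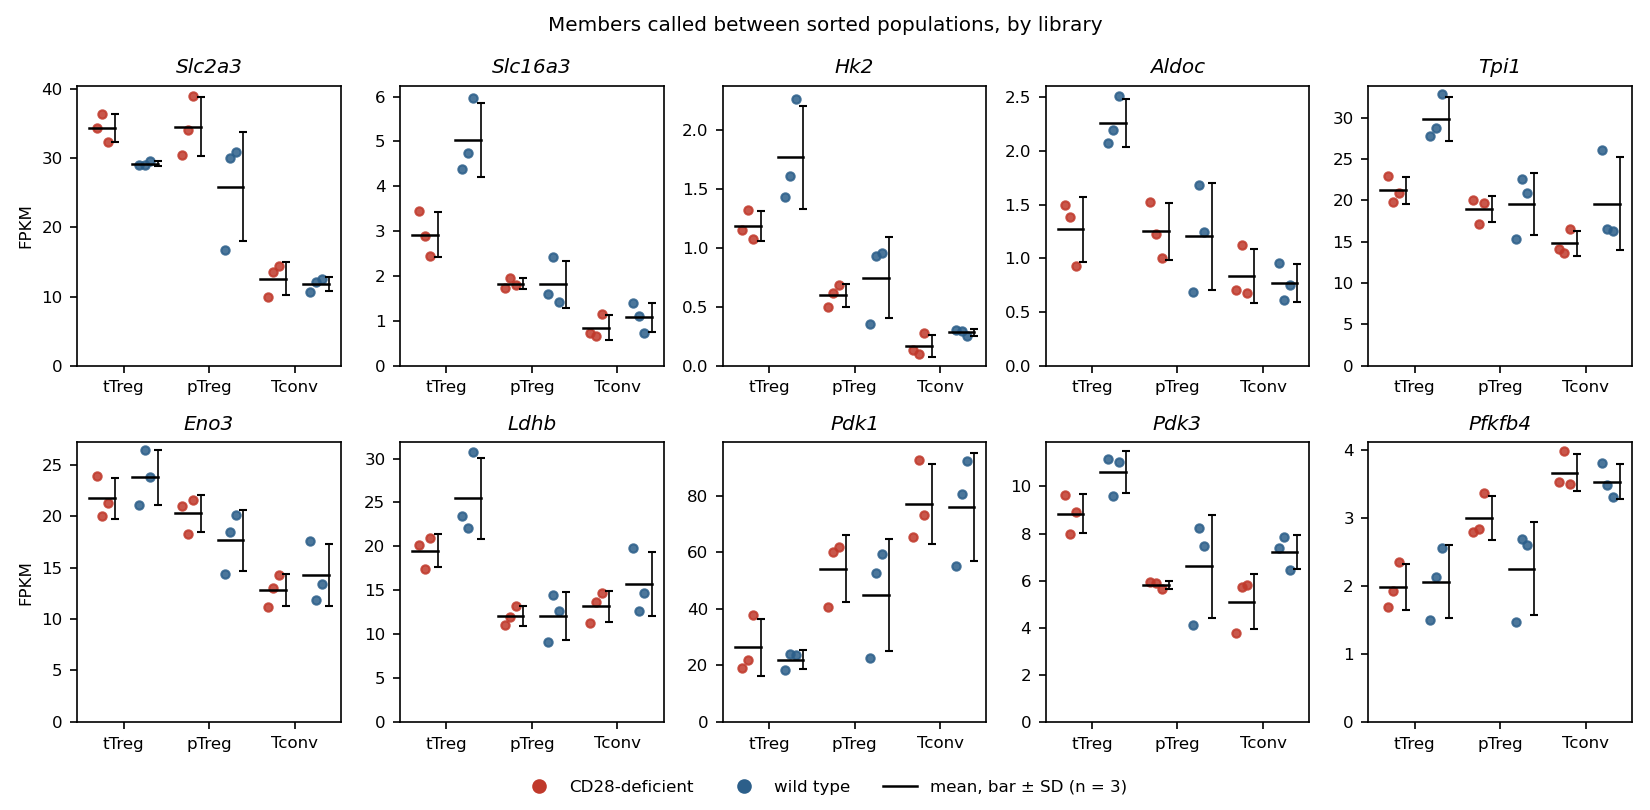
Level in FPKM of the 10 members called between populations, by population, with CD28KO (CD28-deficient) left of WT (points are libraries, lines the mean and bars the SD of 3). Slc2a3 stands above Tconv in both Treg populations, Hk2 and Slc16a3 step down over tTreg, pTreg and Tconv, and Pdk1 is at its highest in Tconv.

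Between the 2 kinds of Treg, limma called 0 of 35 members in CD28KO (4.08% of all genes), with 6 at an unadjusted p under 0.05 against 13.3% of all genes. In WT it called 3 members, all higher in tTreg (4.93% of all genes were called in either direction and 4.44% higher): Hk2, Ldhb and Slc16a3, as given above. The count in WT was 0 in a fit of just those groups, 2 without WT tTreg library 3 and 5 without WT pTreg library 2. In WT, 32 of 35 members had changes above 0, against 76.9% of all genes, and the medians were 0.28 for the members and 0.19 for all genes. In CD28KO, 16 of 35 were above 0, against 44.5% of all genes, with medians of -0.01 and -0.03. The low values of WT pTreg library 1 enter the WT comparison. Without the 3 libraries of highest Mir5105 share, 15 of 35 members were below 0 there, with medians of 0.05 for the members and -0.06 for all genes, and with quantile normalisation 9 were below 0, with medians of 0.09 and -0.01. In WT 5 members were called without those 3 libraries, where all calls numbered 912 in place of 605. The replicate block gave 2 members in CD28KO and 6 in WT, where Pdk1, Aldoc (0.59, adjusted p = 0.0377) and Pdk3 (0.65, adjusted p = 0.0418) were added.

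The levels of isozyme pairs can also be given as the share of 1 gene in the pair. The more abundant gene of the hexokinase, lactate dehydrogenase, lactate exporter and kinase pairs was the same in all 6 groups, and the share of the other one varied. Hk2 made up 3.69 ± 0.36% of hexokinase FPKM (Hk2 with Hk1) in CD28KO tTreg and 4.47 ± 0.50% in WT tTreg, against 0.629 ± 0.314% in CD28KO Tconv and 0.785 ± 0.156% in WT Tconv (SD, n = 3 each, as for all shares here). The pTreg lay between, at 1.94 ± 0.19% in CD28KO and 2.36 ± 0.55% in WT. Slc2a3 was 72.3 ± 1.6% of the transporter pair in CD28KO tTreg and 67.8 ± 1.0% in WT tTreg, 69.6 ± 2.5% in CD28KO pTreg and 64.8 ± 3.0% in WT pTreg, against 50.7 ± 3.0% in CD28KO Tconv and 45.8 ± 4.4% in WT Tconv. Treg thus drew most of this pair from GLUT3, and Tconv about equally from both.

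Slc16a3 was 34.2 ± 6.2% of the lactate exporter pair in CD28KO tTreg and 41.9 ± 0.3% in WT tTreg, against 13.8 ± 3.3% in CD28KO Tconv and 16.3 ± 8.9% in WT Tconv. In pTreg it was 29 ± 6.2% in CD28KO, where the libraries overlapped those of tTreg, and 29.9 ± 10% in WT. Pdk3 was 26.4 ± 7.3% of the kinase pair in CD28KO tTreg and 32.7 ± 4.8% in WT tTreg, against 6.21 ± 1.0% in CD28KO Tconv and 9.07 ± 2.65% in WT Tconv. The Pdk3 share was 10 ± 2.4% in CD28KO pTreg and 13.4 ± 2.2% in WT pTreg. Ldhb was 9.31 ± 0.96% of lactate dehydrogenase FPKM in CD28KO tTreg and 10.6 ± 1.6% in WT tTreg, against 5.81 ± 0.90% in CD28KO Tconv and 5.55 ± 0.67% in WT Tconv. Its share was 4.97 ± 0.17% in CD28KO pTreg and 5.76 ± 0.97% in WT pTreg. Pfkm was 21.5 to 24.4% of its pair with Pfkp in the 6 group means. A share does not depend on how a library is scaled, and these shares were not tested.

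**Figure D4:**
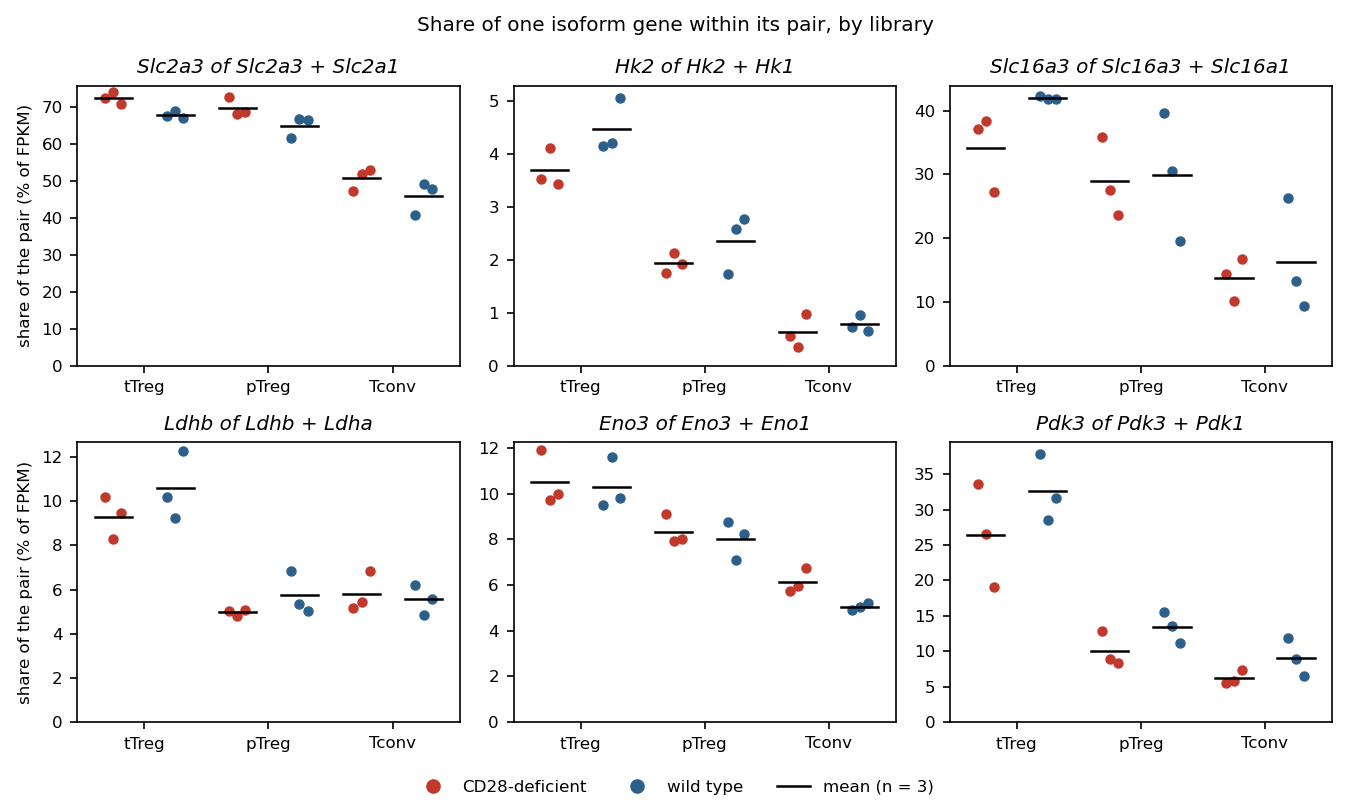
Share of the named isozyme in the summed FPKM of its pair, in percent, by population with CD28KO (CD28-deficient) left of WT (points are libraries, lines the mean of 3). The share of Hk2 is 3.69 and 4.47% in CD28KO and WT tTreg, against 0.629 and 0.785% in CD28KO and WT Tconv, and the share of Ldhb is also largest in tTreg.

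The rest of the pathway was followed by list. Of other glycolysis, glucose and lactate transport genes, 24 of 40 were tested, of other pentose phosphate genes 9 of 11, of other pyruvate entry genes 10 of 13, and of regulators of glucose metabolism 30 of 31. None of them was called by limma between CD28KO and WT in any population (0.204% of all genes in tTreg, 0.204% in pTreg and 0.791% in Tconv). The other pentose phosphate and pyruvate entry genes had 0 calls between populations too, where 4.08 to 12.6% of all genes were called. Of the other glycolysis and transport genes, 2 were called higher and 2 lower in CD28KO tTreg than in CD28KO Tconv (9.63% and 2.47% of all genes). In WT tTreg against WT Tconv 2 were higher and 3 lower (8.33% and 4.26%). Eno2, the neuron-type enolase, was at 2.38 to 2.49 FPKM in CD28KO tTreg and 1.98 to 2.67 FPKM in WT tTreg, against 0.582 to 0.787 FPKM in CD28KO Tconv and 0.453 to 0.531 FPKM in WT Tconv. It was also apart from pTreg, at 0.554 to 0.803 FPKM in CD28KO and 0.633 to 0.876 FPKM in WT. It was called higher in tTreg than in Tconv (1.05 ± 0.12 in CD28KO, adjusted p = 1.91e-05, and 1.19 ± 0.12 in WT, adjusted p = 5.25e-06) and than in pTreg (1.02 ± 0.12, adjusted p = 9.07e-05, and 0.98 ± 0.12, adjusted p = 0.000142). Eno2 too passed the filter through tTreg alone, and without the filter its adjusted p-values ran from 9.89e-06 to 0.000127.

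Slc16a5, a member of the monocarboxylate transporter family, had the largest difference in the list, in the other direction. It was at 0.369, 0.472 and 4.89 FPKM in CD28KO tTreg and 0.343, 0.612 and 0.196 FPKM in WT tTreg, against 19.6, 24.4 and 20.8 FPKM in CD28KO Tconv and 22.4, 22.1 and 24.98 FPKM in WT Tconv. The high tTreg value is that of CD28KO tTreg library 3. It fell by 3.30 ± 0.40 in CD28KO tTreg (adjusted p = 3.1e-05) and by 4.13 ± 0.40 in WT tTreg (adjusted p = 4.12e-06), both against Tconv, and pTreg lay between, at 6.76 to 10.03 FPKM in CD28KO and 3.46 to 7.02 FPKM in WT. Galm, which interconverts the anomers of galactose and glucose, was called higher in tTreg than in Tconv, with means of 15.2 against 3.68 FPKM in CD28KO (1.83 ± 0.24, adjusted p = 4.56e-05) and 17.8 against 5.08 FPKM in WT (1.63 ± 0.24, adjusted p = 0.000115).

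Of the regulators, 4 were called higher in tTreg than in Tconv in both genotypes and 1 lower in WT, of 30 tested, beside 9.63% of all genes higher in CD28KO and 8.33% in WT. Hif1a, the oxygen-regulated factor that drives many glycolytic genes, was at 41.4 to 49.9 FPKM in CD28KO tTreg and 48.9 to 56.8 FPKM in WT tTreg, against 12.6 to 22.1 FPKM in CD28KO Tconv and 11.1 to 25.1 FPKM in WT Tconv. The log2 changes were 1.33 ± 0.30 in CD28KO (adjusted p = 0.00548) and 1.44 ± 0.30 in WT (adjusted p = 0.0032). Irf4, a factor of T cell activation, was higher by 2.31 ± 0.29 in CD28KO tTreg (adjusted p = 3.93e-05) and 1.70 ± 0.29 in WT tTreg (adjusted p = 0.000572). Bhlhe40, an activation-induced repressor, was higher by 3.99 ± 0.57 in CD28KO tTreg (adjusted p = 0.000104) and 2.68 ± 0.57 in WT tTreg (adjusted p = 0.00343), both against Tconv. Myc, a driver of glycolytic genes in activated T cells, averaged 46.1 ± 2.9 FPKM in CD28KO tTreg and 60.7 ± 5.7 FPKM in WT tTreg (SD, n = 3 each), with adjusted p = 1 between them, and was not called in any of the 12 comparisons.

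Of hypoxia response genes outside glycolysis, 10 of 13 were tested. In tTreg against Tconv 1 was called in each genotype (12.1% of all genes in CD28KO and 12.6% in WT). It was lower: P4ha2, a collagen prolyl hydroxylase, with changes of -1.30 ± 0.15 in CD28KO (adjusted p = 2.53e-05) and -1.46 ± 0.15 in WT (adjusted p = 7.01e-06). Between tTreg and pTreg 1 was called in each genotype, Ndrg1, higher in tTreg (4.08% of all genes in CD28KO and 4.93% in WT). Against Tconv, pTreg had lower P4ha2 in CD28KO (5.85% of all genes called) and lower P4ha2 and Ndrg1 in WT (4.49%). P4ha2 was above 1 FPKM in Tconv alone and passed the filter through that group. Cell cycle genes, 22 of 28 tested, were called higher in tTreg than in Tconv for 6 genes in CD28KO and 7 in WT, beside 9.63% and 8.33% of all genes. They were called higher in tTreg than in pTreg for 1 gene in CD28KO and 8 in WT, beside 3.13% and 4.44% of all genes. Mki67, a proliferation marker, averaged 2.15 against 0.869 FPKM in CD28KO tTreg and Tconv, and 3.56 against 1.87 FPKM in WT tTreg and Tconv. Summed markers of other cell types also differed between tTreg and Tconv. B cell markers were at 5.95 to 6.33 FPKM in CD28KO tTreg against 1.15 to 3.61 FPKM in CD28KO Tconv, and at 10.97 to 12.8 FPKM in WT tTreg against 1.72 to 2.18 FPKM in WT Tconv. Myeloid markers were at 58.5 to 89.8 FPKM in CD28KO tTreg against 37.95 to 38.4 FPKM in CD28KO Tconv, and at 77.9 to 89.3 FPKM in WT tTreg against 52.1 to 74.3 FPKM in WT Tconv, most of it from Cst3, while Cd14 was at most 0.295 FPKM. Plasma cell markers were at 26.2 to 30.9 FPKM in CD28KO tTreg against 15.8 to 19.3 FPKM in CD28KO Tconv, and at 33.9 to 37.6 FPKM in WT tTreg against 19.4 to 25.3 FPKM in WT Tconv, most of it from Xbp1. The part of these lists and of the cell cycle genes in the members' levels was not tested.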

How the data were processed

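Total RNA of sorted spleen cells was sequenced as single reads of 50 nt from NEBNext Ultra libraries, per the labels. The deposited values are FPKM per gene and library, made with TopHat2 2.0.11, Cufflinks and Trimmomatic 1 on GRCm38 per the submitters' processing notes. The annotation and the use of strand are not given in the sources used here, so overlapping and antisense genes were not told apart. Low FPKM values gave no single step between libraries, so read depth stays unknown and no count model was used.

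Genes with 1 FPKM or more in at least 3 of 18 libraries were tested with limma 3.58.1 (R 4.3.3) on log2(FPKM + 1), with 1 mean per group, all 18 libraries, a variance trend and Benjamini-Hochberg adjustment over 12265 genes. A gene is called at an adjusted p under 0.05. The 9 comparisons of 2 groups and 3 interactions rest on 12 residual degrees of freedom, to which limma added 4.06 (median over genes). Fold changes on this scale understate those of low genes. The fit was run on simulated data with independent noise and changes larger than any member's between CD28KO and WT tTreg. That run does not bear on smaller changes or on libraries that vary together. Figures were drawn with matplotlib 3.10.9.

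The members and lists were chosen with earlier results of these data known. Changes are printed for every called member and, in the CD28 comparisons, for Slc2a1, Hk2 and Ldha. Library values are printed for the 8 members with the largest called changes. From the pathway lists at most 4 called genes per comparison are named. Other values, such as those of Gapdh, Aldoa, Tpi1, Pgam1 and Myc, were named after they were seen.

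With group means removed, 17 of the 18 libraries were most alike to a library of the same replicate number. The labels do not say what that number marks. The fit behind the calls did not use it, so p-values printed without mention of the replicate block ignore any pairing. A comparison was counted as paired where all 3 same-numbered pairs deviated together from their group means (correlation over 0.1). This held in 6 of the 9 comparisons, all but CD28KO against WT in tTreg and pTreg and pTreg against Tconv in WT. Alternatives were another pseudocount, no filter, no variance trend, only the compared groups, quantile normalisation, scaling to the sum without Mir5105, the replicate block, and leaving out libraries.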

Additional observations from a re-analysis of the deposited data

How the results depend on the processing

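All 23 called member changes kept their direction in the 27 alternatives tried for each, and 534 of 621 alternative values stayed past the threshold. Slc2a3, Hk2, Slc16a3 and Pdk1 between tTreg and Tconv in both genotypes, Aldoc there in WT and Slc2a3 between pTreg and Tconv in CD28KO stayed past it in all 27. Of the 62 called changes of list genes, 0 reversed and 1464 of 1674 values stayed past it. In many of these alternatives the kept direction was fixed in advance. A change between 2 groups stays as it is without a library of another group, without the filter or without the variance trend. The same holds with only the compared groups and with the replicate block. Such fits alter only its SE and p-values.

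The number of members called between CD28KO and WT was 0 in pTreg and Tconv in all alternatives, and in tTreg 3 without the 3 libraries of highest Mir5105 share. Between tTreg and pTreg in CD28KO, where 0 were called, it was 3 with only the compared groups, 4 with quantile normalisation, 5 when scaled without Mir5105, 2 with the replicate block and 6 without those 3 libraries. In WT, where 3 were called, it was 0, 6, 8, 6 and 5 in the same order. Between tTreg and Tconv it was 12 with Mir5105 scaling and 12 without the 3 libraries in CD28KO, in place of 7, and 5 with only the compared groups and 14 with quantile normalisation in WT, in place of 9. Between pTreg and Tconv in CD28KO, in place of 3, it was 1 with no filter and 8 without the 3 libraries. In WT, in place of 1, it was 0 with only the compared groups, 4 with quantile normalisation, 5 with Mir5105 scaling, 3 with the replicate block and 3 without the 3 libraries. Calls over all genes moved as well. In tTreg against pTreg in CD28KO they numbered 500, and 1212, 1105, 936, 801 and 1853 under the 5 settings above, and in WT 605, and 220, 1045, 890, 1224 and 912. In tTreg against Tconv they were 2207 and 2452 in CD28KO, in place of 1484, and 1276 and 3069 in WT, in place of 1545. In pTreg against Tconv they were 662 and 2077 in CD28KO, in place of 718, and 214, 1268, 782, 1129 and 1004 in WT, in place of 551. The causes were not tested. The replicate block changed no other count by over 1.5 times and, beside the calls named with it above, no other call in the paired comparisons.

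With 1 library left out at a time, the counts ran from 0 to 0 in the 3 CD28 comparisons and the 3 interactions. They ran from 0 to 4 (without WT pTreg 1) between tTreg and pTreg in CD28KO and 2 (without WT tTreg 3) to 5 (without WT pTreg 2) in WT. Between tTreg and Tconv they ran from 4 (without CD28KO Tconv 1 or CD28KO tTreg 1) to 10 in CD28KO and from 5 (without WT Tconv 2) to 10 in WT, both highest without WT pTreg 1. Between pTreg and Tconv they ran from 1 (without any CD28KO pTreg or CD28KO tTreg library, CD28KO Tconv 1 or 2, or WT tTreg 1 or 2) to 4 in CD28KO and from 1 to 2 (without WT pTreg 1) in WT. Without CD28KO Tconv library 3 and CD28KO tTreg library 3, whose marker sums stood out as given above, tTreg against Tconv had 6 called members in each genotype.

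Slc2a1 turned to 0.0499 in tTreg and 0.11 in Tconv when scaled without Mir5105. In pTreg it turned to -0.0646 with quantile normalisation, -0.0051 with Mir5105 scaling and -0.0312 without WT pTreg 1, alone or with the other 2 of the 3 libraries. Ldha turned to -0.10 in pTreg without WT pTreg 1, alone or with those 2, and in Tconv to 0.0207 with quantile normalisation and 0.0145 with Mir5105 scaling. With 1 library left out at a time, Slc2a1 in pTreg ran from -0.0312 to 0.3089 and Ldha in pTreg from -0.10 to 0.4256. The median change of all genes was 0.19 in pTreg and -0.16 in Tconv, 0.02 and 0.00 with quantile normalisation, and 0.06 and 0.11 with Mir5105 scaling. Quantile normalisation also moved the share of all calls that were higher. It was 79.6% in CD28KO tTreg against Tconv and 51.6% with that scaling, 66.1% and 47.1% in WT tTreg against Tconv, 76.8% and 59% in CD28KO tTreg against pTreg, 90.1% and 61.4% in WT tTreg against pTreg, and 82% and 59.7% in CD28KO pTreg against Tconv. Mir5105 scaling moved it from 45.7% to 68% in WT pTreg against Tconv and from 16% to 28.1% in CD28KO against WT tTreg.

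With 3 libraries a group, the SE of a change was 0.15 for Hk2 and 0.33 for Pdk1, which limits what could be called. Read depth is unknown, so no counting interval can be given for low genes such as Hk2.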
